A study of Mus musculus with 6 samples.

Results

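Chemokine receptors are G protein-coupled receptors that steer leukocytes along gradients of small secreted chemokines. A naive CD4+ T cell mainly carries receptors that hold it on the route between blood and lymphoid organs, whereas antigen-experienced helper cells add receptors that lead into skin, gut, lung, liver or inflamed tissue. Ligand binding activates inhibitory G proteins, and the signal is then cut short by receptor kinases, arrestins and regulators of G protein signalling.

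The 8 genes described here are Cxcr6, Cxcr3, Cxcr4, Ccr2, Ccr4, Ccr8, Ccr9 and Ccr10, taken by name as receptors known for tissue homing from a table of 19977 genes, and all 8 were found in it. RNA came from CD4+ T cells of old (11 months; 3 libraries) and young (6 to 8 weeks by the protocol, though the sample titles carry the code X1M; 3 libraries) wild-type C57BL/6 mice. All 6 libraries share the spleen and lymph node source, sorting by flow cytometry and a culture of 6 hours with antibodies to CD3 and CD28, so no unstimulated cells are included and receptor levels at rest were not measured. Whether each library is a separate animal is not stated in the labels, so p-values cover only the variation among the 6 libraries, part of which can be technical.

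Expected counts per library totalled 16932551 to 18708205. Cd4 lay at 404 to 627 CPM (counts scaled to a common library total with TMM factors) in old and 319 to 636 CPM in young libraries, Cd3e at 428 to 567 and 371 to 495 CPM, and Cd8a at 2.06 to 2.10 and 1.44 to 2.36 CPM. Cd8b1, the other CD8 chain, lay at 9.14 to 12.5 CPM in old and 14.5 to 25.9 CPM in young libraries (log2 difference -0.84 ± 0.26, adjusted p = 0.266 in edgeR). Young replicate 1 stood apart from the rest, with correlations across genes of 0.920 to 0.940 with the other 5 libraries, which correlated with each other at 0.956 to 0.989. With it left out, 929 genes were called in place of 92 (0.875% of genes tested). Both values are given for members whose call changes without it. For lists whose count of calls changes, both counts are given.

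Differences were tested by quasi-likelihood in edgeR, and p-values were adjusted by the Benjamini-Hochberg method over the 10509 genes that had a mean of at least 1 FPKM (fragments scaled by transcript length and library size). Cxcr6 was called higher in old libraries and the other members were not. Calls in that direction at an adjusted p under 0.05 covered 0.742% of all genes tested, and calls in the lower direction 0.133%. The CPM ranges of the groups did not overlap for Cxcr6, Cxcr3, Ccr2, Ccr4 and Ccr8, which were higher in old libraries, or for Ccr9, which was lower. By unadjusted p under 0.05, 6.69% of all genes tested were higher and 3.96% lower in old libraries. Over all genes tested, the groups failed to overlap with old libraries higher in 9.9% and with old libraries lower in 6.54%. Those shares do not cover Ccr9, whose mean FPKM was below 1. Of the 8 members, 6 passed the level filter, with log2 differences (old minus young) of 1.08 to 3.18 beside a median of -0.03 over all genes tested, of which 3.51% lay above 1. Ccr2 passed through the old libraries alone, since its mean in young libraries was 0.967 FPKM, so this range is a description only. In these bulk libraries, a change in the share of cells that carry a receptor and a change in RNA per cell cannot be told apart.

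**Figure D1:**
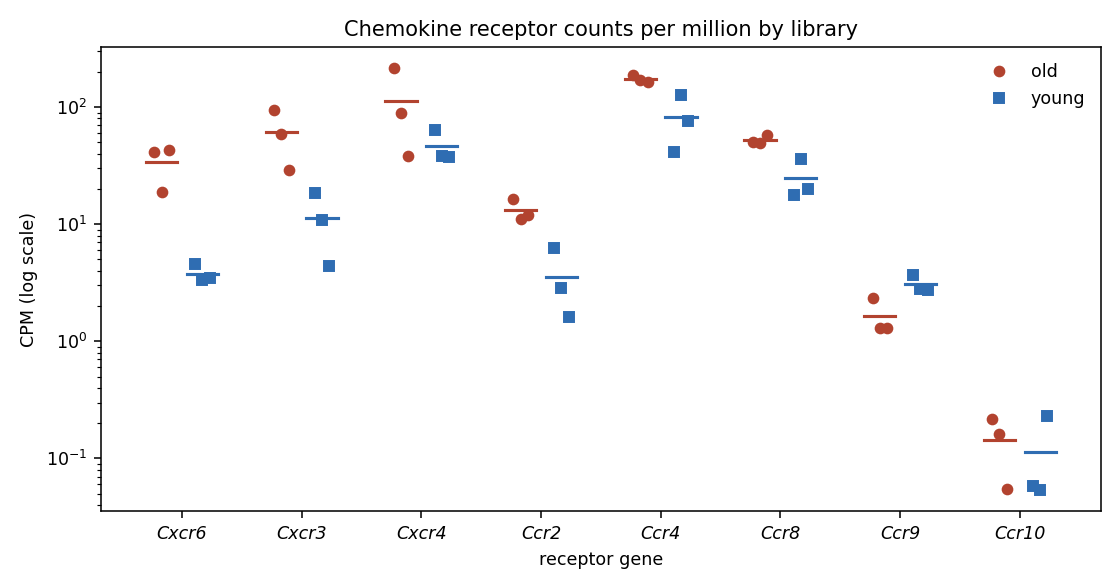
CPM (log axis) of the 8 receptor genes in each library, with old libraries as circles at left and young libraries as squares at right of each gene, and bars at the group means (n = 3 each). Cxcr6 lay at 19 to 42.7 CPM in old and 3.37 to 4.55 CPM in young libraries, and Ccr10 stayed near its detection limit in both groups.

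Cxcr6 is the receptor for Cxcl16 and marks helper cells that lodge in liver, lung and other tissues. It stood at 41.2, 19 and 42.7 CPM in old libraries, against 4.55, 3.37 and 3.45 CPM in young libraries. All old libraries lay well above all young ones, old replicate 2 was the lowest of its group, and the young libraries lay close together. The log2 difference was 3.18 ± 0.35 (SE, n = 3 per group), a 9.04-fold ratio of mean CPM, with an adjusted p = 0.0207 in edgeR. From the highest log2 difference down, Cxcr6 ranked 27 of 10509 genes. Its call held without young replicate 1 (adjusted p = 0.00422) and was lost whenever any other library was left out (adjusted p of 0.0514 to 0.104 in edgeR), while the log2 difference stayed between 2.98 and 3.47. The gene (Entrez 80901) spans positions 123806477 to 123811754 of chromosome 9 in GRCm38, inside the span of Fyco1, an adaptor of vesicle transport. Fyco1 itself had 27.3 to 50.1 CPM in old and 18.6 to 43.5 CPM in young libraries, which gives a log2 difference of 0.41 ± 0.37 with no call (adjusted p = 0.808 in edgeR), and the strand setting of the counting is not given in the sources used here.

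Cxcr3 is the receptor for the interferon-induced chemokines Cxcl9, Cxcl10 and Cxcl11 and is typical of Th1 cells. It stood at 94.7, 58.5 and 29.2 CPM in old libraries, against 18.4, 10.8 and 4.43 CPM in young libraries. Every old library exceeded every young one, yet the values spread widely within each group, with replicate 3 the lowest in both. The log2 difference of 2.44 ± 0.59 (SE, n = 3 per group) did not pass (adjusted p = 0.138 in edgeR). It was called without young replicate 1 (2.99, adjusted p = 0.0181 in edgeR), where 5.86% of genes were called higher. DESeq2, which called 3.56% of genes higher, called it too (2.44, adjusted p = 0.000637), as did edgeR with no level filter (2.48, adjusted p = 0.049), which called 0.995% higher. Cxcr3 (Entrez 12766) lies on chromosome X at 101731535 to 101734147.

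Cxcr4 is the receptor for Cxcl12, which retains cells in bone marrow and other stromal niches. It had 214, 88.4 and 38.3 CPM in old libraries, against 63.8, 38.2 and 37.2 CPM in young libraries. These ranges overlapped, and old replicate 1 lay far above the other libraries. The log2 difference was 1.29 ± 0.57 (SE, n = 3 per group; adjusted p = 0.496 in edgeR), and without old replicate 1 it was 0.45 (adjusted p = 0.89 in edgeR). Cxcr4 (Entrez 12767) lies on chromosome 1 at 128588199 to 128592299.

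Ccr2 is the receptor for Ccl2, Ccl7 and Ccl12 and is known for bringing monocytes and effector T cells into inflamed tissue. It stood at 16.3, 11.1 and 12.1 CPM in old libraries, against 6.28, 2.84 and 1.61 CPM in young libraries. The groups did not overlap, and young replicate 1 was the highest young library. The log2 difference was 1.88 ± 0.48 (SE, n = 3 per group) with no call (adjusted p = 0.162 in edgeR), nor was there one with no level filter (1.93, adjusted p = 0.0652 in edgeR). Without young replicate 1 (2.56, adjusted p = 0.00641 in edgeR) and with DESeq2 (1.88, adjusted p = 0.0049) it passed, but in a gene set that Ccr2 entered through its old libraries. Monocyte and macrophage markers, which could accompany Ccr2 from other cells, summed over 10 genes to 17.9 to 24.2 CPM in old and 21.5 to 30.3 CPM in young libraries, and Csf1r and Itgam had at most 1.14 and 1.69 CPM in old libraries and 2.25 and 2.88 CPM in young ones. Each of the 10 had counts in some library, 0 were called in edgeR or DESeq2, and 1 (Lyz2, lower in old) had an unadjusted p under 0.05 in edgeR. Of the 4 that passed the level filter, 2 had positive and 2 negative log2 differences, from Lyz2 at -0.87 to Cd68 at 0.56. Cd68 had 6.83 to 9.61 CPM in old and 2.65 to 7.72 CPM in young libraries. The part of such cells in the Ccr2 value was not tested.

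Ccr4 and Ccr8 are receptors of Th2 and regulatory T cells that home to skin. Ccr4, which binds Ccl17 and Ccl22, stood at 188, 170 and 164 CPM in old libraries, against 41.5, 127 and 76.3 CPM in young libraries. Ccr8, which binds Ccl1, stood at 50.7, 49.1 and 57.9 CPM in old libraries, against 17.9, 36.4 and 20.1 CPM in young libraries. For both genes the old libraries lay within a narrow range above all young ones, while young replicate 2 was the highest and young replicate 1 the lowest of the young libraries. The log2 differences were 1.09 ± 0.37 for Ccr4 and 1.08 ± 0.28 for Ccr8 (SE, n = 3 per group), without a call in edgeR (adjusted p = 0.309 and 0.173). DESeq2 called Ccr8 (1.07, adjusted p = 0.021) and not Ccr4 (1.08, adjusted p = 0.0941). Both genes are on chromosome 9, Ccr4 (Entrez 12773) at 114490316 to 114505476 and Ccr8 (Entrez 12776) at 120092133 to 120094906.

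Ccr9 and Ccr10, which did not pass the level filter, are the receptors for the small intestinal chemokine Ccl25 and for the skin and mucosal chemokines Ccl27 and Ccl28. Ccr9 (Entrez 12769, chromosome 9, 123767211 to 123783457) had 2.34, 1.29 and 1.31 CPM in old libraries, against 3.69, 2.78 and 2.76 CPM in young libraries. Every old library lay below every young one, opposite to the neighbouring Cxcr6. With no level filter its log2 difference was -0.87 ± 0.38 (SE, n = 3 per group), not called (adjusted p = 0.493 in edgeR). Ccr9 is also carried by plasmacytoid dendritic cells, whose marker Siglech had 0.326 to 0.699 CPM in old and 0.922 to 1.21 CPM in young libraries. Of the whole list of dendritic and plasmacytoid markers, 9 of 10 had counts and Cd209a was at 0. The list summed to 121 to 170 CPM in old and 87.4 to 152 CPM in young libraries. Most of that sum was Bst2, at 83.5 to 129 CPM in old and 54.7 to 118 CPM in young libraries. Siglech did not pass the level filter. Of the 6 that did, 4 had positive and 2 negative log2 differences, from Ly6d at -1.37 to Zbtb46 at 1.16. In edgeR 0 were called, while DESeq2 and edgeR without young replicate 1 each called 1. The part of these cells in the Ccr9 value was not tested. Ccr10 (Entrez 12777, chromosome 11, 101172998 to 101175443) had 4, 3 and 1 counts in old libraries and 1, 1 and 4 counts in young libraries. The sums of 8 and 6 counts gave a ratio of 1.30 (old over young) with an exact 95% interval of 0.394 to 4.53 that covers counting error only, so no difference was detectable at this depth.

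**Figure D2:**
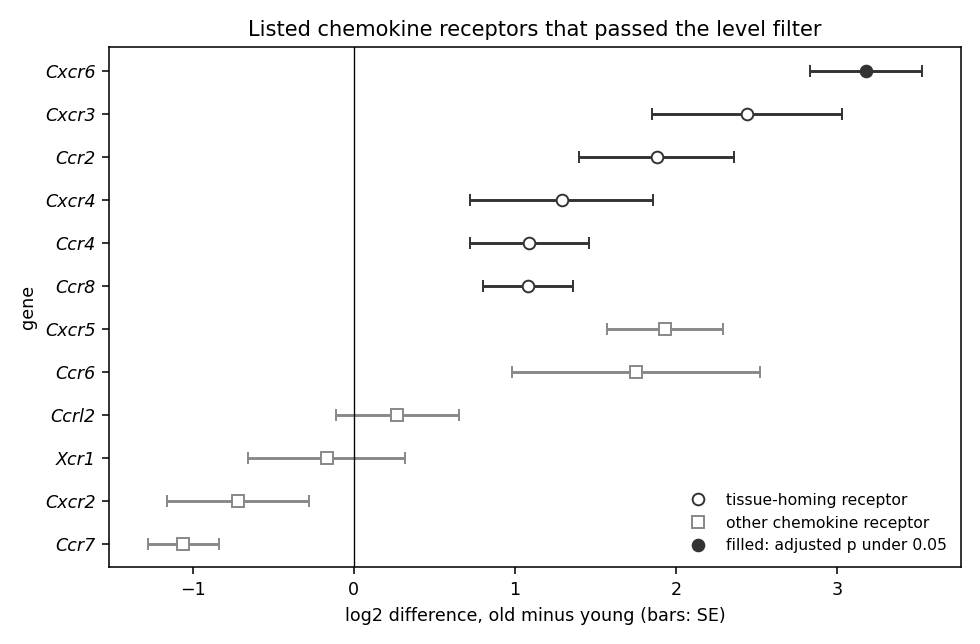
Log2 difference (old minus young) of the listed chemokine receptors that passed the level filter, with bars for the standard error (n = 3 per group); circles are tissue-homing receptors, squares other chemokine receptors, and filled symbols passed an adjusted p of 0.05 in edgeR. Cxcr6 at 3.18 is the filled symbol, and Ccr7 at -1.06 is the lowest value.

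Young replicate 1 did not shift the members in the same way. Among young libraries it was the highest for Cxcr6, Cxcr3, Cxcr4, Ccr2 and Ccr9 and the lowest for Ccr4 and Ccr8. Leaving it out therefore moved the log2 difference of Cxcr3 to 2.99 and of Ccr2 to 2.56, and those of Ccr4 and Ccr8 to 0.78 and 0.89. S1pr1, the receptor for exit from lymphoid organs, had 699 CPM in young replicate 1 and 81.4 and 70.2 CPM in the other young libraries, beside 59.8 to 152 CPM in old libraries.

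**Figure D3:**
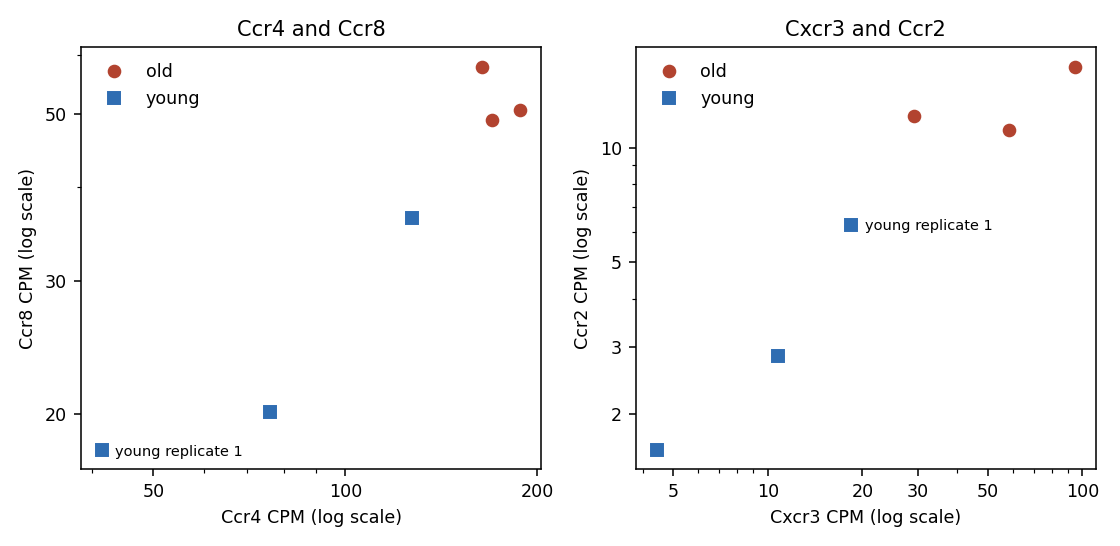
CPM (log axes) of Ccr4 against Ccr8 at left and of Cxcr3 against Ccr2 at right, with 1 point per library (old as circles, young as squares). Young replicate 1 is the lowest point for Ccr4 at 41.5 CPM and Ccr8 at 17.9 CPM, but the highest young point for Cxcr3 at 18.4 CPM and Ccr2 at 6.28 CPM.

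Levels can be compared between genes per transcript length, in FPKM as the authors deposited it. In old libraries the order by mean FPKM level was Cxcr4 at 64.2 ± 51.8, Ccr4 at 63.3 ± 5.43, Ccr8 at 46.2 ± 3.24, Cxcr3 at 38.3 ± 21.0, Cxcr6 at 18.1 ± 6.88, Ccr2 at 3.60 ± 0.766, Ccr9 at 0.377 ± 0.133 and Ccr10 at 0.0867 ± 0.0513 FPKM (SD, n = 3). In young libraries it was Ccr4 at 29.4 ± 15.3, Cxcr4 at 26.1 ± 9.20, Ccr8 at 21.7 ± 8.89, Cxcr3 at 7.06 ± 4.56, Cxcr6 at 2.0 ± 0.404, Ccr2 at 0.967 ± 0.670, Ccr9 at 0.700 ± 0.148 and Ccr10 at 0.0633 ± 0.0577 FPKM (SD, n = 3). The order was thus alike in both groups apart from its first places, where Cxcr4 and Ccr4 overlapped. Other neighbours whose libraries overlapped were Ccr8 with Cxcr3 and Cxcr3 with Cxcr6 in old libraries, and Cxcr4 with Ccr8 and Ccr2 with Ccr9 in young libraries. The FPKM of the 8 genes summed to 323, 207 and 172 in old libraries, against 85.2, 109 and 69.2 in young libraries. Cxcr6 made up 6.84%, 4.91% and 12.8% of that sum in old libraries, against 2.90%, 1.63% and 2.54% in young libraries.

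Ratios between members within a library need no scaling factor, and each of 7 members was set against Cxcr4. The log2 count ratio of Cxcr6 to Cxcr4 averaged -1.48 ± 1.42 in old libraries and -3.58 ± 0.20 in young libraries (SD, n = 3 each), a difference of 2.10 between groups that did not overlap. For Cxcr3 the ratio averaged -0.72 ± 0.41 in old and -2.23 ± 0.73 in young libraries, and for Ccr9 -5.83 ± 0.86 in old and -3.88 ± 0.19 in young libraries, also without overlap. These 3 comparisons reached the smallest p that an exact two-sided permutation test of 3 against 3 allows (p = 0.1, or 0.233 with Benjamini-Hochberg adjustment over the 7 pairs), so none could pass 0.05. For Ccr2, Ccr4, Ccr8 and Ccr10 the ratios to Cxcr4 overlapped between groups, with differences of 1.08, 0.24, 0.15 and -0.52 and exact permutation p of 0.2, 0.8, 0.9 and 0.9. Cxcr4 itself spread widely among old libraries, and that spread enters every ratio.

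**Figure D4:**
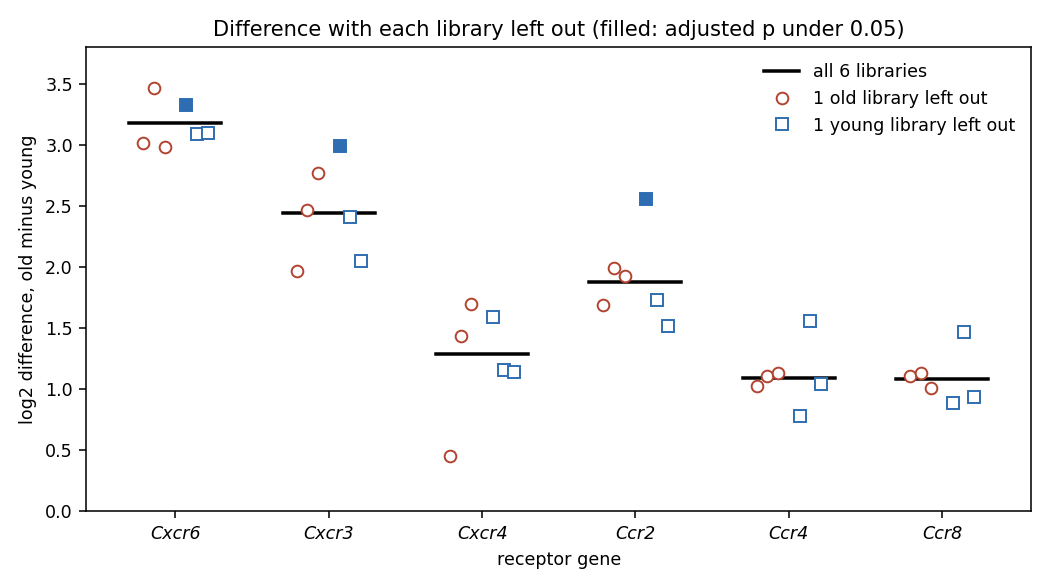
Log2 difference (old minus young) of the 6 receptors that passed the level filter, with all libraries (black bars) and with each library left out in turn (circles: an old library left out; squares: a young library left out; filled: adjusted p under 0.05 in edgeR). All values stay above 0, the filled points are those of Cxcr6, Cxcr3 and Ccr2 without young replicate 1, and Cxcr4 drops to 0.45 without old replicate 1.

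Of the 8 genes, 5 lie on chromosome 9, and Ccr9, Cxcr6 and Ccr2 share a receptor gene cluster of 342 kb from the start of Ccr9 to the end of Ccr2. Neighbours in it differed in direction, though of these members Cxcr6 alone was called. Ccr9, whose end is 23 kb from the start of Cxcr6, was lower in old libraries, while Cxcr6 was higher. Ccr9 lay below the level filter and was not called with no filter (adjusted p = 0.493 in edgeR). Xcr1, a receptor known from cross-presenting dendritic cells and starting 46 kb beyond Cxcr6, had 7.06, 3.60 and 2.77 CPM in old libraries, against 5.88, 2.46 and 6.84 CPM in young libraries, and the groups overlapped (log2 difference -0.17 ± 0.49). Ccr2, at the far end, was higher without overlap but not called (adjusted p = 0.162 in edgeR). Of the other genes in between, Fyco1 and Ccr1 overlapped and Ccr1l1 was at 0. Ccr3, below the level filter, was higher without overlap, at 0.215 to 0.380 CPM in old and 0 to 0.115 CPM in young libraries. That rests on 7, 4 and 4 counts in old and 2, 2 and 0 counts in young libraries. With no level filter Ccr3 was not called (adjusted p = 0.628 in edgeR). Over all genes tested, the groups failed to overlap with old libraries higher in 9.9% and lower in 6.54%. Those shares do not cover genes below the level filter, such as Ccr3 and Ccr9.

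**Figure D5:**
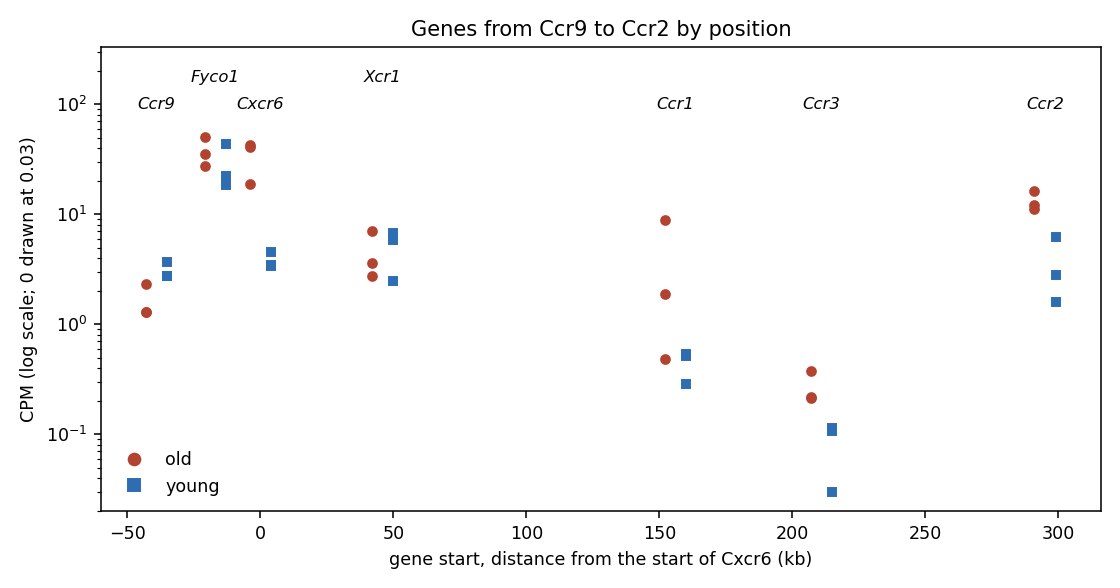
CPM (log axis) of chromosome 9 genes from Ccr9 to Ccr2 against the distance of each gene's start from the start of Cxcr6 in kilobases, with 1 point per library (old as circles at left, young as squares at right of each position). Ccr9 lies lower in old libraries at 1.29 to 2.34 CPM against 2.76 to 3.69 CPM in young ones, whereas Cxcr6 and Ccr2 lie higher.

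The 250 bases before the annotated RefSeq start (GRCm38.p6) are shown for the chromosome 9 members that were higher in old libraries without overlap, so that the gene with the call can be read beside those without one. RefSeq windows were at hand for 7 of the 8 members. Capitals mark matches, on either strand, to the AP-1 motif TGANTCA, the NFAT core GGAAA and the GATA motif AGATAA; the T-box motif AGGTGTGA and the Kruppel-like motif CCACACCC were searched too. AP-1 and NFAT are the factors that T-cell receptor and CD28 signals activate.
Cxcr6: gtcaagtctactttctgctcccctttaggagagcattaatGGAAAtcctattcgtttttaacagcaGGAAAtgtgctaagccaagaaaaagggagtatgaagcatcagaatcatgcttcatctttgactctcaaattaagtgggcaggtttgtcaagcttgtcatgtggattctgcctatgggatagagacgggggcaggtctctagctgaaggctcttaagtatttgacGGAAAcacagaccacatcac
Ccr2: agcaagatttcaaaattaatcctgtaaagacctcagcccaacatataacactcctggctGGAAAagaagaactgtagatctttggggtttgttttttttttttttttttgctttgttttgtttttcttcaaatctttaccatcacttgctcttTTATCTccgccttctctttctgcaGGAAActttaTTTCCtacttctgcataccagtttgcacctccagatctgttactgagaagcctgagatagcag
Ccr4: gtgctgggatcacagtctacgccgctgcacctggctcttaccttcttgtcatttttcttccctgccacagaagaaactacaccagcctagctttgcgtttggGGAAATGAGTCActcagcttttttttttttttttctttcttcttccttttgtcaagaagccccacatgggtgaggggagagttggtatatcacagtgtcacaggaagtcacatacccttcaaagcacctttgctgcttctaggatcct
Ccr8: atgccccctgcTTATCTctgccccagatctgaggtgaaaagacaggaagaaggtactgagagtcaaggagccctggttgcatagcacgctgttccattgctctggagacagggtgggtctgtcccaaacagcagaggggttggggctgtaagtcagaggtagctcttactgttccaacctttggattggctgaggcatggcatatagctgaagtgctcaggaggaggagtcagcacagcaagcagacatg

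These windows lie at chr9:123806227-123806476 (plus strand) for Cxcr6, chr9:124101933-124102182 (plus strand) for Ccr2, chr9:114496545-114496794 (minus strand) for Ccr4 and chr9:120091883-120092132 (plus strand) for Ccr8. Those of Ccr2 and Ccr4 lie inside the span of the whole gene, before the start of 1 of its transcripts. The NFAT core, short enough to occur in 55.6% of all 32851 windows, was present in 4 of the 7 members' windows (Cxcr6, Ccr2, Ccr4 and Cxcr4). The AP-1 motif, present in 6.75% of all windows, was found for Ccr4 alone among the members' windows, where it directly followed an NFAT core. That joined form, the NFAT core with the AP-1 motif directly after it, was searched after it had been seen and stands in 13 windows (0.0396%). The GATA motif (9.99% of all windows) matched in Ccr2 and Ccr8, and neither the T-box motif (1.12%) nor the Kruppel-like motif (3.2%) matched in the members' windows. A match is a description of the letters and not a binding site.

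Ligands of these receptors were measured in the same T cells. Of 15 listed, 8 passed the filter, with a median log2 difference of 0.51 beside -0.03 over all genes tested. Ccl1, a ligand of Ccr8, stood at 31.8, 45.0 and 115 CPM in old libraries, against 4.21, 7.17 and 4.66 CPM in young libraries, and was the 1 call of the list (3.58 ± 0.53, SE, n = 3 per group; adjusted p = 0.0368 in edgeR). That call held without young replicate 1 and was lost when any other library was left out (adjusted p of 0.0508 to 0.177 in edgeR). Ccl22, a ligand of Ccr4, was the most abundant at 333 to 604 CPM in old and 255 to 410 CPM in young libraries, with a log2 difference of 0.55 ± 0.29 and no call. Cxcl10, a ligand of Cxcr3, had 29.9 to 78.0 CPM in old and 24.1 to 41.1 CPM in young libraries, and Ccl25, the ligand of Ccr9, had 1.83 to 3.04 CPM in old and 2.94 to 4.26 CPM in young libraries, with overlap in both. Cxcl16, the ligand of Cxcr6, had 3.17 to 5.93 CPM in old and 3.39 to 5.13 CPM in young libraries, which gives a log2 difference of 0.20 ± 0.33.

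Among 15 other chemokine receptors, 6 passed the filter, with a median log2 difference of 0.05 and 0 calls in edgeR (2 at an unadjusted p under 0.05, 1 higher and 1 lower, beside 6.69% higher and 3.96% lower over all genes tested). DESeq2 called 2 of them and edgeR without young replicate 1 called 3, beside 501 and 929 of all 10509 genes tested, in either direction. Cxcr5, which leads follicular helper cells into B-cell follicles, had 35.3 to 55.0 CPM in old and 6.44 to 16.7 CPM in young libraries (1.93 ± 0.36, adjusted p = 0.0689 in edgeR). With no level filter, where 0.995% of genes were called higher, Cxcr5 was called (1.97, adjusted p = 0.0197 in edgeR). Ccr7, the lymph node homing receptor, had 524 to 618 CPM in old and 895 to 1410 CPM in young libraries (-1.06 ± 0.22, adjusted p = 0.0895 in edgeR). Ccr6, a receptor of Th17 cells, had 2.55 to 10.4 CPM in old and 0.589 to 4.15 CPM in young libraries, which overlapped.

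Lists of genes that act after the receptors had medians near 0. Of 19 G protein and desensitisation genes, 16 passed the filter, with a median log2 difference of 0.03, and of 20 migration effectors all passed, with a median of -0.03. In edgeR 0 genes of either list were called, and 4 and 1 had an unadjusted p under 0.05, all higher in old libraries. Over all genes tested, 6.69% were higher and 3.96% lower by that measure. The groups failed to overlap with old libraries higher for 5 and 2 genes (9.9% of all genes tested) and lower for 0 and 1 (6.54%). DESeq2 called 3 and 0 of the lists, beside 501 of all 10509 genes tested in either direction. Without young replicate 1, edgeR called 4 and 2, beside 929 of all genes tested. The highest values in these lists were those of Rgs16 and Rgs1, both regulators of G protein signalling, while other regulators of that family lay as low as -0.38 (Rgs14). Rgs16 had 284, 354 and 424 CPM in old libraries, against 50.8, 164 and 153 CPM in young libraries (1.53 ± 0.42, adjusted p = 0.201 in edgeR). Rgs1 had 226, 246 and 312 CPM in old libraries, against 63.7, 139 and 115 CPM in young libraries (1.30 ± 0.30, adjusted p = 0.12 in edgeR). Gnai2, the main inhibitory G protein subunit of lymphocytes, had 334 to 449 CPM in old and 308 to 553 CPM in young libraries.

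In the list of adhesion and glycosylation genes that serve tissue homing, 9 of 14 passed the filter, with a median log2 difference of 0.11 and 1 call, Cd44, the hyaluronan receptor of antigen-experienced cells (1.40 ± 0.21, adjusted p = 0.0368 in edgeR). DESeq2 and edgeR without young replicate 1 each called 3 of the list, beside 501 and 929 of all 10509 genes tested, in either direction. With any other library left out, edgeR called 0 of the list. Itgb1, the beta 1 integrin chain, had 166 to 248 CPM in old and 97.3 to 119 CPM in young libraries (1.0 ± 0.20, adjusted p = 0.0828 in edgeR). With no level filter, where 0.995% of genes were called higher, Itgb1 was called (1.03, adjusted p = 0.0455 in edgeR). Of 12 other egress and positioning receptors, 10 passed, with a median of 0.49 and 0 calls in edgeR (6 at an unadjusted p under 0.05, 5 higher and 1 lower). By that measure the shares over all genes tested were 6.69% higher and 3.96% lower. DESeq2 called 4 and edgeR without young replicate 1 called 5, beside the same 501 and 929 of all genes tested. Gpr15, a receptor for homing to the large intestine, had 3.26, 4.68 and 6.64 CPM in old libraries, against 1.96, 1.28 and 0.460 CPM in young libraries (1.97 ± 0.53, adjusted p = 0.188 in edgeR). Like Ccr2 it passed the filter through the old libraries alone, since its young mean was 0.973 FPKM. The list's median and its count of genes higher are therefore a description only.

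Genes with the most similar pattern over the 6 libraries were ranked by Pearson correlation of log2(CPM + 1) with each member, as a description in which the libraries share the group difference and the departure of young replicate 1. For Cxcr6 they were Aqp9 (r = 0.996), an aquaglyceroporin, Camk2n2 (0.991) and Iah1 (0.989). Renbp (0.997), Entpd1 (0.994), the ectonucleotidase CD39, and Gna15 (0.992) were most like Cxcr3. Those most like Ccr2 were Gas2l1, Wls and Il10rb, a receptor chain for interleukin 10 (all 0.997). For Ccr4 they were Rhoq (0.994), Shfl (0.991) and Cd6 (0.990), for Ccr8 Slc41a1 (0.995), Apba3 (0.991) and Thtpa (0.989), and for Cxcr4 Lgalsl (0.984), Zfp808 (0.984) and C2cd4b (0.977). None of these 18 genes was called, with adjusted p of 0.0877 for Aqp9 up to 0.781 for Zfp808 in edgeR.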

How the data were processed

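Total RNA of 6 libraries was prepared with Illumina protocols and sequenced on a HiSeq, as the labels' protocols state. In 1 table of 66712 RefSeq transcripts, the authors deposited an expected count and an FPKM value of each library, per the file headers. The submitters' processing notes name Bowtie, RSEM, GRCm38 and mm10. Tool versions, the annotation release and the strand setting were not given in the sources used here. By design RSEM shares multi-mapping reads among transcripts through a model, so genes with near-identical copies are uncertain.

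Expected counts and FPKM were summed per Entrez gene, with symbols and positions looked up in RefSeq's GRCm38.p6 annotation (19830 of 19977 genes matched). Rounded sums were tested with edgeR 4.0.16 in R 4.3.3 (quasi-likelihood, TMM factors, no block, mean FPKM of at least 1), with Benjamini-Hochberg adjustment over 10509 genes and a threshold of 0.05. Each standard error was taken as the log2 difference divided by the root of the quasi-likelihood F statistic. The script was tested on simulated data with known changes. No 2 libraries agreed within sampling noise (chi-square per degree of freedom of at least 22.74).

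The members and lists were chosen with earlier results of these data known. The text names the members, the 3 genes most like each, and, from each list, called genes and up to 4 with the smallest p, not all of which are printed, with Cd4, Cd3e and Cd8a. Gnai2, Rgs14, Cxcl16, Csf1r, Itgam, Siglech, Ncr1, Zbtb16, Il23r, Fyco1, S1pr1, Ccr3 and Ccr1l1 stand outside that rule or were named after their values were seen. The same holds for Elane, Mpo, Retnlg, Mmp8, Pax5, Cr2, Tnfrsf17 and Sdc1. Alternatives were other level filters, RLE factors, DESeq2 1.42.0, limma 3.58.1 on log2(FPKM + 1) and log2(FPKM + 0.1), robust edgeR, a replicate block and leaving out each library. Figures were drawn with matplotlib 3.10.9. Protein sequences were not used here, and some genes of the lists are not reported here and were left out of the lists' counts, though not of the fit.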

Additional observations from a re-analysis of the deposited data

How the results depend on the processing

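The 6 tested members kept a positive log2 difference under every alternative run. In place of 92 genes, 203 were called with no level filter, 55 with a mean FPKM of at least 5, and 501 with DESeq2. With 1 library left out the count lay between 0 and 929; it was 0 without young replicate 2 (1296 genes at an unadjusted p under 0.05) and without old replicate 2 (688 genes). In place of 1 member, 2 were called with no level filter (Cxcr6, Cxcr3) and 4 with DESeq2 (Cxcr6, Cxcr3, Ccr2, Ccr8), and 0 to 3 with 1 library left out (3 without young replicate 1: Cxcr6, Cxcr3, Ccr2). The cause was not tested. With the replicate number as a block, 119 genes and 2 members (Cxcr6, and Cxcr3 at 2.50, adjusted p = 0.00991) were called in edgeR, which called 0.99% of genes higher; deviations of same-numbered libraries correlated at 0.23, -0.018 and 0.241, and old replicate 3 correlated best with young replicate 2 (0.318), so the numbers were not taken to pair them. With 1 library left out, log2 differences of some genes that were not called changed sign. Mzb1, at 0.51 with all libraries, ranged from -0.01 to 0.82 (negative without old replicate 1). Cd79b ranged from -0.15 to 0.29 (negative without old replicate 1, and at -0.05 without young replicate 2 or young replicate 3). Ly6c2 ranged from -0.06 to 0.41 (negative without young replicate 3). Xcr1 ranged from -0.66 to 0.09 (positive without old replicate 3 at 0.07 and without young replicate 3). Differences of ratios to Cxcr4 changed sign too, at -0.43 to 0.80 for Ccr4 and -0.53 to 0.80 for Ccr8 (negative without old replicate 3, at -0.34 and -0.53, and without young replicate 1, at -0.43 and -0.30), and at -1.09 to 0.30 for Ccr10 (positive without young replicate 3). The order of the 8 members was unchanged in TPM. Ccr2 had no value at a mean FPKM of at least 5, and Ccr10 had one only with no filter. Counting error limits Ccr9 and Ccr10.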

Other observations

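For Ccr9 and Ccr2 the division of reads among transcripts varied widely between libraries. Ccr9 has 2 transcripts in the table. All its counts were assigned to NM_001166625.1 in old replicate 1 and young replicate 2, and all to NM_009913.6 in old replicates 2 and 3 and young replicate 3, while young replicate 1 had 31.5% and 68.5%. For Ccr2, NM_009915.2 took 67.5%, 78.2% and 78.8% of counts in old libraries, against 23.9%, 100% and 0% in young libraries, where the gene's counts summed to 108.57, 52.57 and 28.43. Ccr4 had 95.3% to 97.6% of its counts on NM_009916.2 in old libraries and 96.2% to 97.5% in young ones. Cxcr6, Cxcr3, Ccr8 and Ccr10 have 1 transcript each. No transcript was tested between groups.

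Ccr1, an inflammatory receptor of the same chromosome 9 cluster that did not pass the level filter, had 0.489, 1.88 and 8.81 CPM in old libraries, against 0.519, 0.535 and 0.288 CPM in young libraries, so its high mean in old libraries rested on old replicate 3. Gcnt1, a glycosyltransferase that builds selectin ligands and also below the filter, had 6.46, 6.94 and 5.82 CPM in old libraries, against 0.922, 1.77 and 1.09 CPM in young libraries. Itgae, the integrin chain of cells lodged in epithelia, had 5.16, 6.83 and 5.82 CPM in old libraries, against 3.0, 0.963 and 0.690 CPM in young libraries. With no level filter, edgeR called Gcnt1 (2.36, adjusted p = 0.014) but neither Itgae (1.99, adjusted p = 0.101) nor Ccr1 (3.08, adjusted p = 0.177). That setting called 0.995% of genes higher. These 3 genes were picked after their values were seen.

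Neutrophil markers summed over 10 genes to 57.7, 33.4 and 22.4 CPM in old libraries, against 107, 43.2 and 125 CPM in young libraries. The 6 that passed the level filter all had negative log2 differences, with a median of -1.87. Among them, Ltf passed through the young libraries alone, since its mean in old libraries was 0.333 FPKM. The signs and the median are therefore a description only. Of the markers that did not pass, Elane and Mpo had higher means in old libraries, and Retnlg and Mmp8 lower ones. Of the 6 that passed, 4 had an unadjusted p under 0.05 in edgeR, beside 3.96% lower over all genes tested, and 0 were called. DESeq2 called 2 and edgeR without young replicate 1 called 1, beside 501 and 929 of all 10509 genes tested, in either direction. Ltf, a neutrophil granule protein, had the lowest value (-2.93 ± 0.71, SE, n = 3 per group; adjusted p = 0.139 in edgeR), with 1.79, 0.753 and 0.163 CPM in old libraries, against 9.34, 4.23 and 7.19 CPM in young libraries. Natural killer and innate-like lymphocyte markers summed over 7 genes to 38.0 to 41.2 CPM in old and 50.7 to 101 CPM in young libraries, mostly from Eomes, a T-box factor that was lower in old libraries without overlap (-1.33 ± 0.29, adjusted p = 0.108 in edgeR). Eomes, the 1 gene of the list that passed the level filter, was called by DESeq2 and by edgeR without young replicate 1. The other 6 had higher means in old libraries, and did not pass the level filter. Of those, Il23r had 0.706, 1.08 and 3.81 CPM in old libraries, against 0.288, 0.0535 and 0.115 CPM in young libraries. Ncr1 had at most 0.490 CPM in old libraries and 0.214 CPM in young ones, and Zbtb16 had 7.99, 2.42 and 2.18 CPM in old libraries, against 2.54, 2.09 and 1.55 CPM in young ones. B-cell and plasma-cell markers summed over 9 genes to 15.1 to 32.0 CPM in old and 13.6 to 31.3 CPM in young libraries. In that list edgeR called 0 genes (1 at an unadjusted p under 0.05) and DESeq2 called 1, Jchain, the joining chain of secreted antibodies, with 15.3, 4.84 and 12.8 CPM in old libraries, against 1.27, 2.19 and 4.31 CPM in young libraries (2.08 ± 0.57, adjusted p = 0.196 in edgeR). Of the 5 that passed the level filter, 4 had positive and 1 a negative log2 difference, with a median of 0.08. They ran from Cd79a at -1.17 to Jchain at 2.08. Mzb1 passed through the old libraries alone, since its young mean was 0.983 FPKM, so these signs are a description only. Pax5, Cr2, Tnfrsf17 and Sdc1, which did not pass, had lower means in old libraries. CD8 markers summed to 11.2 to 14.6 CPM in old and 16.5 to 27.4 CPM in young libraries, and CD4 T-cell markers to 4390 to 5340 CPM in old and 4120 to 4510 CPM in young libraries. The part of these cells in the receptor values was not tested.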
